A study of Mus musculus with 2 samples.

Results

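The heat shock chaperones examined here are 10 genes, taken by symbol from the 32285 genes of the deposited matrices: Hspa1a, Hspa1b, Hspa8, Hsp90aa1, Hsp90ab1, Hsph1, Dnajb1, Hspb1, Hspd1 and Hspe1. All 10 were found. Hspa1a, Hspa1b, Dnajb1, Hsph1 and Hspb1 were summed as the 5 inducible members. Hspa8, Hsp90ab1, Hspd1 and Hspe1 were summed as the 4 constitutive members. Hsp90aa1, the Hsp90 isoform that is stress-inducible in many cells but abundant at rest in neurons, was kept out of both sums and set beside Hsp90ab1.

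The series profiled single cells of the mouse retina in 1 library per genotype. Mice on the C57BLKS background carried either the wild-type leptin receptor gene (Lepr wt/wt; the design text writes m/m for these controls) or 2 copies of the db mutation (Lepr db/db), a model of obesity and type 2 diabetes. All were untreated and 13 weeks old. Each library pooled retinas of both eyes from 2 mice, and the labels do not tie cells to mice, so genotype, library and handling cannot be told apart. No test between genotypes was possible. The 95% intervals below are exact and cover counting error only.

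Heat shock proteins are molecular chaperones that bind unfolded proteins and help them fold or be degraded. Hsp70 proteins work in cycles with J-domain partners such as Dnajb1, and Hsp110 proteins such as Hsph1 act as their nucleotide exchange factors, while Hsp90 matures kinases and receptors. The transcription factor Hsf1 binds repeats of the letters nGAAn, called heat shock elements, and switches on the inducible genes after heat, oxidative stress or damage. In the retina, photoreceptors need chaperones for the constant supply of phototransduction proteins, and Müller glia, the radial support cells, respond to injury with fast changes in gene expression.

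The promoters were searched for the letters of this element. RefSeq promoter entries of the GRCm38.p6 build were matched for 7 of the 10 members, all but Hspa8, Hsp90aa1 and Hsp90ab1, as 10 entries of 300 bases each (250 before the transcription start and 50 from it). The letters GAANNTTC and TTCNNGAA, each its own reverse complement, were searched, and with them the 3-unit forms in which GAA and TTC alternate with 2 free bases between units, which contain both. GAANNTTC stood in 7.86% and TTCNNGAA in 8.52% of all 32851 entries, and a 3-unit form in 0.603%. The Hspa1a and Hspa1b entries differed at 4 of 300 bases, and the stretch from 150 to 21 bases before the start was the same in both. It lies at chr17:34972177-34972306 for Hspa1a and chr17:34959259-34959388 for Hspa1b, both on the minus strand. Hspe1 and Hspd1, the chaperonin pair, start close together on opposite strands of chromosome 1, and the Hspe1 entry and 1 of the 2 Hspd1 entries share a site at chr1:55088053-55088082, which overlaps an annotated untranslated region of Hspd1. The other Hspd1 entry, at chr1:55088194-55088493, held none of the letters. The shared site is shown because it holds both 3-unit forms in a pair counted as constitutive here. The Hsph1 site lies at chr5:149636357-149636386 on the minus strand, overlapping an annotated untranslated region of Hsph1, and the Hspb1 stretch at chr5:135887769-135887898 on the plus strand. Hspb1 is shown because its promoter has 2 matches although the gene was almost undetected. In each sequence the capitals mark the matched letters.
Hspa1a and Hspa1b: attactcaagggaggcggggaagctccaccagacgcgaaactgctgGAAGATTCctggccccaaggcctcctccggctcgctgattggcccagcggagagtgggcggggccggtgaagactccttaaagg
Hspb1: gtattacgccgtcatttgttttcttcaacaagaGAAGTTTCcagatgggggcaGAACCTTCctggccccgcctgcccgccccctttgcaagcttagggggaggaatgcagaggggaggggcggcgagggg
Hsph1: tccattgggtagaatctTTCTCGAAggctc
Hspe1, plus strand: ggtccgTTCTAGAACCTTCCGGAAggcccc
Hspd1, minus strand: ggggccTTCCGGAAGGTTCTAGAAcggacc

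Both Hsph1 entries also held TTCTGGAAAGTTC after the start, and neither Dnajb1 entry held any of the letters. A match here is a description of the sequence, not a measured binding site.

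The wild-type matrix held 10308 barcodes and 35642274 unique molecular identifiers (UMIs), and the db/db matrix 11083 barcodes and 33742189 UMIs. After filtering, 10230 and 10963 cells remained, with medians of 2314 and 2051 UMIs, and 26 barcode strings occurred in both libraries. Each cell was put in a class by marker genes, none of them a chaperone, and cells that fitted several classes were set apart. The labels give about 6000 cells loaded and 3000 targeted, fewer than the barcodes. Where 2 values stand side by side below, the wild-type library comes first. Rods numbered 8339 and 9509, cones 368 and 349, bipolar cells 380 and 310, and Müller glia 183 and 126. Cells were also counted near each gate, with a marker share from 0.8 times it to the same factor above. They numbered 916 and 830 at the rod gate and 111 and 91 at the cone gate. At the bipolar gate they numbered 61 and 37, and at the Müller gate 58 and 41. This range reaches below the gate, where cells do not enter the class, so these numbers are not parts of the class counts. Microglia or macrophages (40 and 43 cells), amacrine cells (73 and 18) and erythroid cells (22 and 36) were too few to compare and are given as values. In Müller glia all 9 class markers were detected in both libraries and summed to 19545 and 20166 counts per 1000000 UMIs (CPM). Of the 10 microglial markers 8 and 7 were at 0, and cone markers summed to 191 CPM in both libraries. Other lists were present, with rod markers at 6192 and 6228 CPM. Endothelial markers, led by Kdr and Flt1, summed to 1686 and 1490 CPM, against 60.5 CPM over all kept cells. Amacrine markers, led by Pax6, summed to 571 and 645 CPM, against 92.6 CPM over all kept cells.

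Levels in CPM are UMIs scaled to the summed UMIs of the class and library. In 3' counting a UMI marks 1 transcript end and is not scaled by gene length, but genes differ in capture, so ratios between genes were compared across classes and not read as absolute proportions. Hspa1a and Hspa1b are near-identical copies, and how reads were divided between them is not known here. Therefore each is uncertain on its own.

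For Hsp90aa1, Hspa8 and the inducible sum, levels ranged more widely over the cell classes than between the libraries of a class. Hsp90aa1, the most abundant member in every neuron class, was highest in rods, while Hspa8, Hsp90ab1 and Hspe1 were lower in rods than in cones, bipolar cells and Müller glia. Among the classes other than erythroid cells, the inducible sum was lowest in bipolar and amacrine cells, intermediate in rods and cones, and highest in Müller glia and in microglia or macrophages. The plot of levels by class shows all 10 members.

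**Figure D1:**
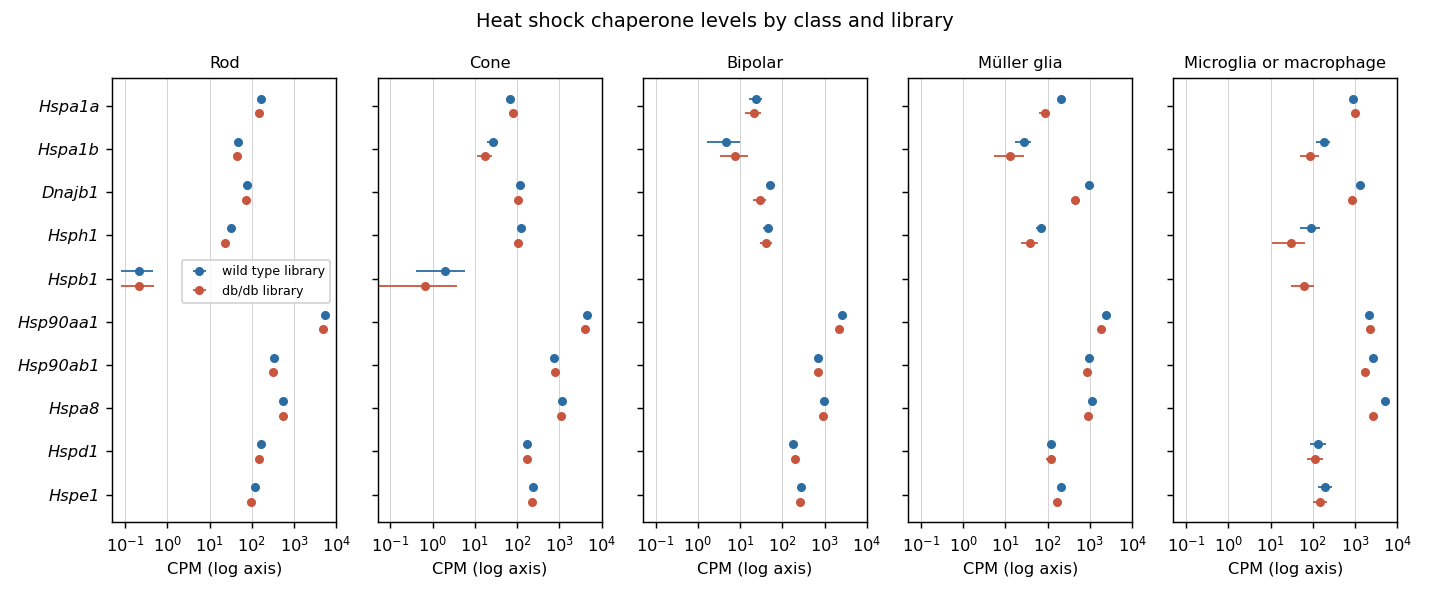
Level of each chaperone in CPM (log axis) in 5 cell classes, with blue points for the wild-type library and red points for the db/db library. Bars are exact 95% Poisson intervals, members with 0 UMIs are not drawn, and the Hspb1 bar of cones in the db/db library runs past the left edge. Hsp90aa1 stands at 5484 and 4917 CPM in rods, and Dnajb1 at 959 and 439 CPM in Müller glia.

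Among the inducible members, Hspa1a, a cytosolic Hsp70 that is little expressed in most unstressed cells, was at 162 and 145 CPM in rods. It was at 67.6 and 79.0 CPM in cones and at 209 and 86.0 CPM in Müller glia. In bipolar cells it had 31 and 22 UMIs in all, or 23.4 and 20.9 CPM, no more than the 26.0 and 23.4 CPM that free rod RNA, described below, would give there. The highest level was in microglia or macrophages, at 892 and 976 CPM. Thus the 2 libraries lay close together in all these classes except Müller glia. Hspa1b followed at lower levels, with 46.6 and 44.1 CPM in rods and 180 and 84.6 CPM in microglia or macrophages. The ratio of Hspa1a to Hspa1b was 3.47 (3.26 to 3.70) and 3.29 (3.09 to 3.52) in rods.

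Dnajb1, the J-domain partner that delivers substrates to Hsp70, had another order. Its levels were 76.8 and 72.5 CPM in rods, 116 and 105 CPM in cones and 52.0 and 29.5 CPM in bipolar cells. In Müller glia it was at 959 and 439 CPM, and in microglia or macrophages at 1303 and 836 CPM. Müller glia and microglia or macrophages were therefore above every neuron class in both libraries. For Müller glia this order rested on part of the cells. Those below the median share of immediate early genes, described below, had Dnajb1 at 24.4 and 32.1 CPM, from 4 and 7 UMIs. Hsph1, the Hsp110 exchange factor, was highest in wild-type cones, at 121 CPM, with 103 CPM in db/db cones, against 32.4 and 23.0 CPM in rods. Hspb1, a small heat shock protein that holds unfolded proteins without using ATP, had 6 UMIs in each library's rods. No Hspb1 UMI was found in Müller glia or bipolar cells, and a count of 0 allows up to 3.65 and 5.61 CPM in Müller glia. The 12 Hspb1 UMIs in db/db microglia or macrophages included 10 from 1 cell.

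Summed over the 5 inducible members, rods had 318 and 285 CPM, and cones 333 and 305 CPM. Bipolar cells had 124 and 98.9 CPM, and amacrine cells 126 and 113 CPM. Müller glia had 1265 and 576 CPM, and microglia or macrophages 2464 and 1986 CPM. Erythroid cells had 29.1 and 19.4 CPM, from 3 and 6 UMIs. The order of the other 6 classes was the same in both libraries. Rods and cones differed less from each other within a library than either class did between libraries.

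Among the constitutive members, Hspa8, the housekeeping Hsp70 that also strips clathrin from vesicles, was at 539 and 529 CPM in rods. Cones had 1137 and 1104 CPM, bipolar cells 972 and 910 CPM, and Müller glia 1132 and 884 CPM. In microglia or macrophages it was at 4941 and 2663 CPM, but 1 wild-type cell held 149 of the 770 UMIs, and the wild-type level without that cell was 4397 CPM. Hspd1, the mitochondrial chaperonin, varied little, from 120 CPM in db/db Müller glia to 198 CPM in db/db bipolar cells over the 4 compared classes. Hspe1, its lid, was at 115 and 94.7 CPM in rods and at 236 and 219 CPM in cones. The ratio of Hspe1 to Hspd1 was 0.707 (0.675 to 0.740) and 0.640 (0.609 to 0.673) in rods. In cones it was 1.40 (1.19 to 1.65) and 1.31 (1.11 to 1.55), in bipolar cells 1.61 and 1.30, and in Müller glia 1.70 and 1.41. Although the 2 genes share the matched letters shown above, their proportion differed between rods and the other compared classes in both libraries by more than counting error.

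The 2 cytosolic Hsp90 genes gave the clearest class order. Rods had 5484 and 4917 CPM of Hsp90aa1 against 328 and 310 CPM of Hsp90ab1, the constitutive isoform. Hsp90aa1 was lower in cones, at 4535 and 3944 CPM, in bipolar cells, at 2636 and 2124 CPM, and in Müller glia, at 2335 and 1793 CPM. Hsp90ab1 was higher in those classes, at 752 and 769 CPM in cones, 683 and 675 CPM in bipolar cells and 948 and 856 CPM in Müller glia. Hsp90aa1 per Hsp90ab1 UMI was 16.7 (16.4 to 17.1) and 15.9 (15.5 to 16.2) in rods. The ratio was 6.03 (5.66 to 6.43) and 5.13 (4.82 to 5.47) in cones, 3.86 and 3.15 in bipolar cells, 2.46 and 2.09 in Müller glia and 1.61 and 1.76 in amacrine cells. Only in wild-type microglia or macrophages did Hsp90ab1 exceed Hsp90aa1, with a ratio of 0.778 (0.671 to 0.901). The db/db library had 1.33 (1.15 to 1.53) there. These ratios are not corrected for free rod RNA, described below, which is rich in Hsp90aa1. Rod markers summed to 4056 and 5475 CPM in microglia or macrophages, against 39171 and 36381 CPM in rods. Whether the 2 libraries would still differ in order without that RNA was not tested. In the wild-type class 1 cell held 65 of the 418 Hsp90ab1 UMIs. Under the other definitions of this class, given at the end, the wild-type order was reversed. Hsp90aa1 was at 2917 CPM against 2175 CPM of Hsp90ab1 with cells kept that also passed the rod gate. In Leiden clusters it was at 2730 CPM against 2241 CPM. The first of these definitions adds cells rich in rod marker UMIs, and Hsp90aa1 was highest in rods. The part of rod RNA in the reversed order was not tested.

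**Figure D2:**
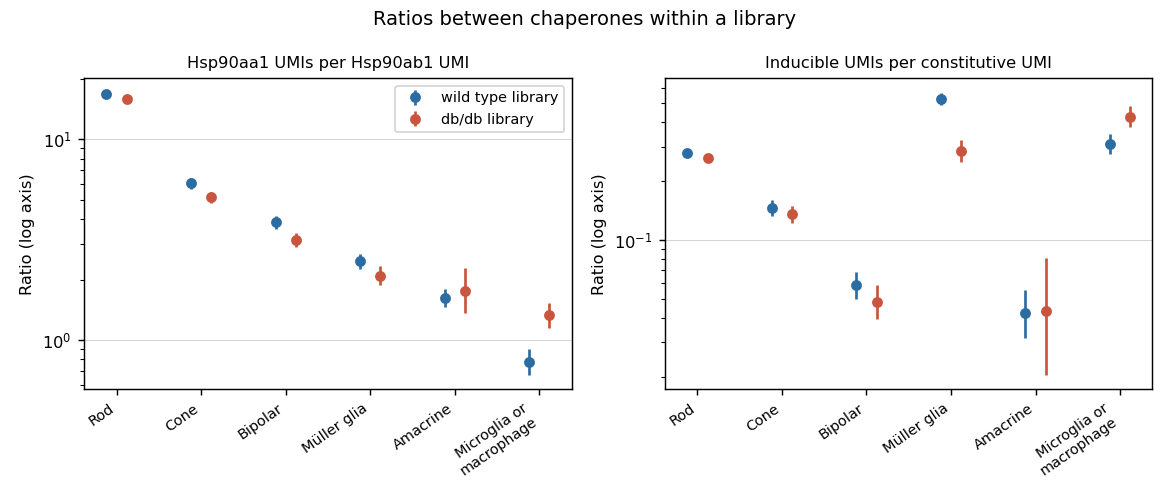
Ratio of UMIs on a log axis in 6 classes, Hsp90aa1 over Hsp90ab1 at left and the inducible over the constitutive sum at right, with blue for wild type, red for db/db and exact 95% intervals. The left ratio runs from 16.7 in wild-type rods to 0.778 in wild-type microglia or macrophages, and at right the libraries lie farthest apart in Müller glia, at 0.525 and 0.284.

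Rod marker UMIs were found in all other classes, as free RNA in droplets gives. Taken as such, rod RNA came to 22.1% and 21.4% of UMIs in cones, 16.0% and 16.1% in bipolar cells, and 15.8% and 17.1% in Müller glia. That RNA alone would give 26.0 and 23.4 CPM of Hspa1a in bipolar cells, above the measured levels, so no Hspa1a of their own was detectable in them. In cones it would give 35.7 and 31.1 CPM of Hspa1a and in Müller glia 25.6 and 24.9 CPM, below the measured levels. Of Hsp90aa1 it would give 880 and 790 CPM in bipolar cells and 867 and 842 CPM in Müller glia, and of Dnajb1 12.1 and 12.4 CPM in Müller glia. With that RNA subtracted, the log2 ratio of Hsp90aa1 between libraries, described below, was -0.60 in Müller glia and -0.40 in bipolar cells, against -0.38 and -0.31 without it. Erythroid cells, which should lack most of these transcripts, had 242 and 268 CPM of Hsp90aa1, 48.4 and 45.2 CPM of Hspa8, and 1 and 2 UMIs of Hspa1a. All 3 levels were far below those of rods. However, the erythroid markers, led by the globin Hbb-bs, summed to 898189 and 900039 CPM in erythroid cells. This lowers the CPM of every other gene there, so these levels cannot be set against those of rods directly.

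The inducible sum per constitutive UMI was 0.278 (0.271 to 0.284) and 0.264 (0.257 to 0.270) in rods. It was 0.145 (0.132 to 0.160) and 0.135 (0.122 to 0.149) in cones, and 0.0590 (0.0501 to 0.0690) and 0.0485 (0.0394 to 0.0590) in bipolar cells. Müller glia had 0.525 (0.487 to 0.566) and 0.284 (0.249 to 0.322), the widest gap between libraries of the 4 compared classes. Since both sums come from the same cells, this ratio does not depend on the total used for scaling.

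For the comparison of the libraries, a member was counted as measured in a class where the 2 libraries together gave it 100 UMIs or more, and a log2 ratio of db/db over wild type of at least 0.25 in size as past the fold. In rods 9 members were measured, of which 2, Hsph1 and Hspe1, were lower in the db/db library past the fold and 0 higher. Of the 11119 genes measured in rods, 7.92% were lower and 9.25% higher past the fold. All 9 members had ratios below 0, beside 43.7% of all measured genes. The members' median was -0.14 against 0.02 over all measured genes. In cones 0 of 8 measured members passed in either direction, beside 11.1% of all measured genes lower and 11.6% higher. In bipolar cells 2 of 7, Hsp90aa1 and Dnajb1, were lower and 0 higher, beside 15.3% lower and 14.2% higher. In Müller glia 5 of 7 were lower and 0 higher, beside 16.1% lower and 20.8% higher, and the members' median was -0.36 against 0.04 over all 2590 measured genes. These 5 were Hspa1a, Dnajb1, Hspa8, Hsp90aa1 and Hspe1.

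**Figure D3:**
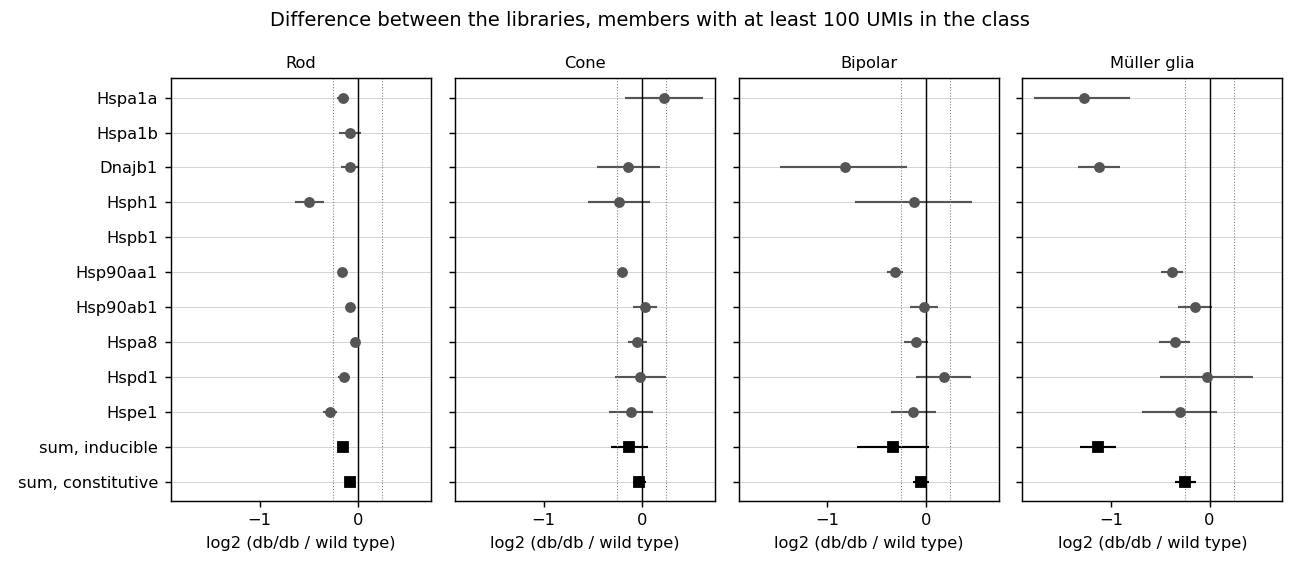
Log2 ratio of db/db over wild type (horizontal axis) for each measured member and both sums in 4 classes, with exact 95% intervals for counting error. The dotted lines mark 0.25 in either direction; both sums lie near 0 in rods and cones, and in Müller glia the inducible sum is at -1.13 and the constitutive sum at -0.25.

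In rods the inducible sum had a log2 ratio of -0.16 (-0.20 to -0.11) and the constitutive sum one of -0.08 (-0.10 to -0.06). Hsph1 had 903 and 637 UMIs in rods, or 32.4 and 23.0 CPM, a log2 ratio of -0.50 (-0.64 to -0.35). Hspe1, at 115 and 94.7 CPM, had -0.28 (-0.36 to -0.21). Hsp90aa1, with 153033 and 136415 UMIs in rods, had a narrow interval of -0.17 to -0.15 around -0.16. The large counts therefore resolved differences in rods that were small in size, and whether they exceed the spread between mice cannot be told from 1 library per genotype.

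Rods of the 2 libraries also differed in the share of UMIs from mitochondrial genes, a measure of RNA quality. Cells with under 2% mitochondrial UMIs made up 33.6% of the wild-type rods but 42.2% of those in the db/db library. The inducible sum was lower in cells with a higher share, going over the 4 bins from 359 to 234 CPM among wild-type rods and from 316 to 199 CPM among db/db rods. Within the bins, its log2 ratio was -0.19 at 0 to 2%, -0.20 at 2 to 5%, -0.03 (-0.14 to 0.07) at 5 to 10% and -0.23 (-0.49 to 0.02) at 10 to 20%. The Hsp90aa1 ratio was between -0.14 and -0.16 in every bin. Hsph1 was at -0.57, -0.63 and -0.31 in the first 3 bins and at 0.32 (-0.43 to 1.11) in the last, which held 22 and 51 Hsph1 UMIs.

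**Figure D4:**
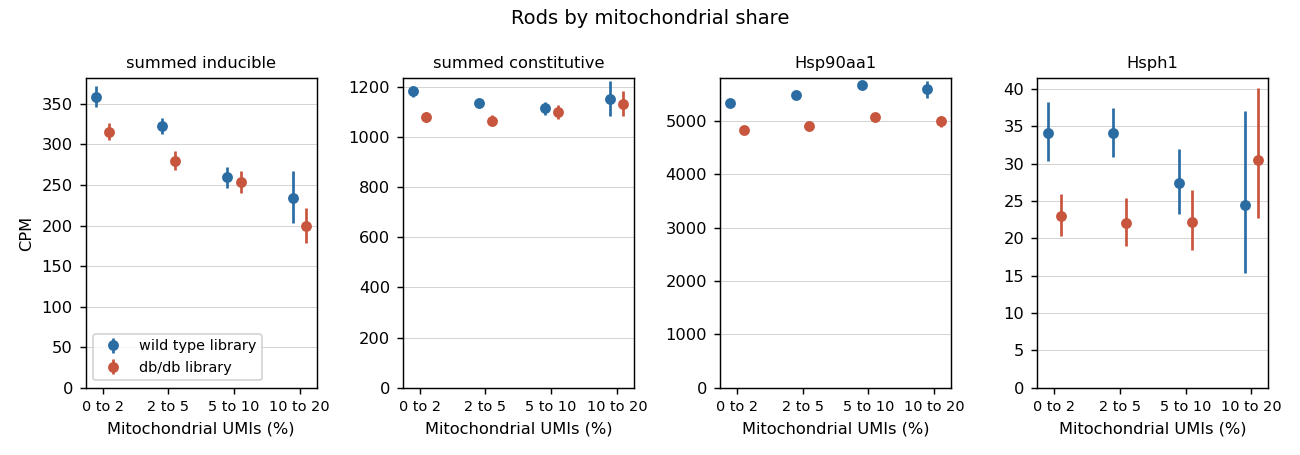
CPM in rods grouped by mitochondrial share, for the inducible sum, the constitutive sum, Hsp90aa1 and Hsph1, with blue for wild type, red for db/db and exact 95% Poisson intervals. The inducible sum goes from 359 to 234 CPM in the wild-type library from the lowest to the highest share, and Hsp90aa1 is lower in the db/db library in all 4 groups.

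In cones the inducible sum had a log2 ratio of -0.13 (-0.31 to 0.06) and the constitutive sum -0.02 (-0.09 to 0.05). Hsp90aa1 was the 1 cone member whose interval lay away from 0, at -0.20 (-0.25 to -0.15). In bipolar cells Hsp90aa1 was at -0.31 (-0.39 to -0.23), and Dnajb1, with 69 and 31 UMIs, at -0.82 (-1.48 to -0.19). Hspd1 went the other way, at 0.18 (-0.09 to 0.46). The bipolar sums had ratios of -0.33 (-0.70 to 0.03) for the inducible and -0.05 (-0.13 to 0.03) for the constitutive members.

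Müller glia carried the largest difference between libraries of the 4 compared classes. Dnajb1 had 788 and 235 UMIs, at 959 and 439 CPM, a log2 ratio of -1.13 (-1.34 to -0.91). Its UMIs came from 70 of 183 and 35 of 126 cells, with up to 64 and 37 in a single cell. The interval treats UMIs as independent and leaves out this unevenness between cells. Hspa1a had 172 and 46 UMIs, at 209 and 86.0 CPM, a ratio of -1.28 (-1.79 to -0.81). Hsph1, with 57 and 20 UMIs, stayed under the count minimum and had a ratio of -0.89 (-1.71 to -0.13). The inducible sum was 2.20-fold lower in the db/db library. Of the constitutive members, Hspa8 was at -0.36 (-0.52 to -0.19), Hspe1 at -0.30 (-0.68 to 0.08), Hsp90ab1 at -0.15 (-0.32 to 0.02) and Hspd1 at -0.02 (-0.50 to 0.44). Hsp90aa1 was at -0.38 (-0.49 to -0.27).

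Immediate early genes, which encode fast-induced regulators such as Fos and Jun and also respond to tissue dissociation, moved with this difference in Müller glia. Summed over the 12 genes of that list, they had 40525 and 27954 CPM in Müller glia, against 1318 and 1142 CPM in rods. They had 2536 and 2410 CPM in cones and 1420 and 1200 CPM in bipolar cells. In microglia or macrophages, too few to compare, they went the other way, at 38020 and 48111 CPM. The inducible sum there was at 2464 and 1986 CPM. All 11 early genes measured in Müller glia were lower in the db/db library past the fold, beside 16.1% of all measured genes there. Among them Fos was at 9914 and 7014 CPM. The 309 Müller glia of both libraries were therefore parted at the median share of these genes, 1.08% of a cell's UMIs, as a comparison chosen after the data were seen. Below the median there were 76 wild-type and 78 db/db cells, at or above it 107 and 48, so 58.5% of wild-type but 38.1% of db/db Müller glia fell in the upper part. Müller markers summed to between 18266 and 20890 CPM in the 4 sets of cells. The cells also differed in depth, with medians of 1278 and 1310 UMIs below and 5727 and 6380.5 UMIs at or above the median.

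The inducible members were found mostly in the upper cells, with 1017 of 1039 wild-type and 286 of 308 db/db UMIs. Below the median the inducible sum was 134 and 101 CPM, 22 UMIs each, with a log2 ratio of -0.41 (-1.33 to 0.51), and Dnajb1 had 4 and 7 UMIs. At or above it the sum was 1547 and 903 CPM, a ratio of -0.78 (-0.97 to -0.59). In these cells Dnajb1 was at 1193 and 720 CPM, Hspa1a at 252 and 129 CPM, and Hsp90aa1 at 2454 and 1747 CPM, a ratio of -0.49 (-0.63 to -0.35). Immediate early genes there were at 49962 and 44882 CPM, a ratio of -0.15. The constitutive sum, by contrast, was present in both parts, at 1730 and 1677 CPM below and 2578 and 2271 CPM at or above the median. Thus the inducible difference was smaller within the upper cells than over all Müller glia but remained in them, and below the median the counts were too low to resolve it. The part of the immediate early genes, or of dissociation, in this difference was not tested.

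**Figure D5:**
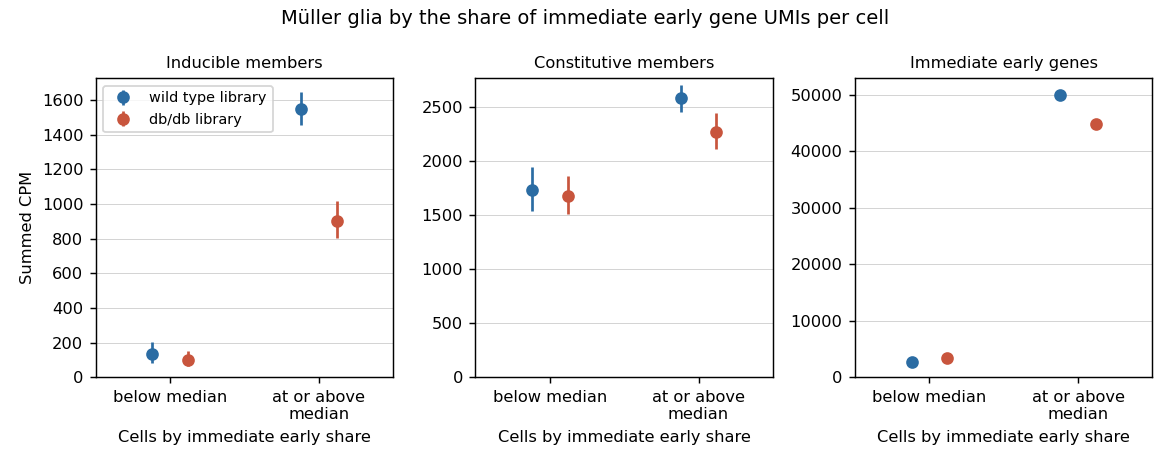
Summed CPM of the inducible members, the constitutive members and the immediate early genes in Müller glia below, and at or above, the median share of immediate early genes, with blue for wild type, red for db/db and exact 95% Poisson intervals. The inducible sum is 134 and 101 CPM below the median and 1547 and 903 CPM at or above it, while the constitutive sum is at 1730 and 1677 CPM below it.

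The share of cells with a UMI was compared after thinning each cell to 1000 UMIs and leaving out shallower cells, which kept 6753 and 8338 rods and 151 and 94 Müller glia. Hsp90aa1 was found in 98.8% and 98.3% of rods, against 5 of 21 and 6 of 35 erythroid cells. Hspa8 was found in 40.4% and 39.7% of rods, against 0 of 21 and 1 of 35 erythroid cells. Hspa1a was found in 12.9% and 12.7% of rods, against 0 of 21 and 1 of 35. The erythroid shares are lowered by the erythroid markers, which made up most UMIs of those cells. Dnajb1 was found in 29.1% (22.0% to 37.1%) and 18.1% (10.9% to 27.4%) of Müller glia. These intervals overlap, as do those of Hspa1a, 13.2% (8.28% to 19.7%) and 6.38% (2.38% to 13.4%). Without thinning, the shares in Müller glia were 38.3% and 27.8% for Dnajb1 and 26.2% and 15.9% for Hspa1a, at median depths of 4429 and 3801 UMIs. In rods they were 98.2% and 98.4% for Hsp90aa1, 64.0% and 62.3% for Hspa8, and 29.4% and 27.2% for Hspa1a, at median depths of 2236 and 1968 UMIs.

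The factors that work with these chaperones were described from lists of related genes, and from each list the 3 with the most UMIs in rods are named. The counts stand beside the shares of all measured genes past the fold, which were 7.92% lower and 9.25% higher in rods. Of the heat shock factors and their regulators, 0 of 3 measured passed the fold in rods in either direction. Hsf1 was at 44.6 and 42.7 CPM, Hsf2 at 69.8 and 71.7 CPM and Hsbp1, a small protein that binds Hsf1, at 151 and 134 CPM. The other Hsp70 and Hsp110 members, with Hspa4l at 645 and 636 CPM in rods, had 1 of 6 higher there, Hspa2. Other J-domain proteins had 0 of 9 past the fold in rods and 3 of 8 lower in Müller glia, Dnaja1, Dnaja2 and Dnajb4, where 16.1% of all measured genes were lower. Dnaja1, a cytosolic partner of Hsp70, was at 526 and 378 CPM in Müller glia, a log2 ratio of -0.48 (-0.73 to -0.23), and at 195 and 201 CPM in rods.

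Hsp90 cochaperones had 1 of 10 higher in rods, Fkbp5, 0 of 5 past the fold in Müller glia, and 4 of 9 lower in bipolar cells, Fkbp4, Cdc37, Ahsa1 and Chordc1, where 15.3% of all measured genes were lower and Hsp90aa1 was lower too. Cdc37, which brings kinases to Hsp90, was at 158 and 114 CPM in bipolar cells and at 97.6 and 91.7 CPM in rods. Hsp70 exchange factors and partners had 1 of 8 lower in rods, Bag1. The mitochondrial chaperones, to which Hspd1 and Hspe1 belong by place, had 0 of 7 past the fold in rods, with Hspa9 at 139 and 138 CPM and Grpel1 at 113 CPM in both libraries. TRiC, the cytosolic chaperonin, had 0 of 8 past the fold in rods and 4 lower and 1 higher of 8 in Müller glia, beside 16.1% lower and 20.8% higher of all measured genes there.

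Of the endoplasmic reticulum chaperones, 5 of 11 were lower in rods, Hsp90b1, Calr, Canx, Pdia3 and Pdia6, and 1 higher, Dnajb9, beside 7.92% lower and 9.25% higher of all measured genes, with a median log2 ratio of -0.25 against 0.02 over all measured genes. Hsp90b1, the Hsp90 of the endoplasmic reticulum, was at 570 and 412 CPM, a ratio of -0.47 (-0.50 to -0.43), and the calcium-binding lectin Calr at 288 and 234 CPM, a ratio of -0.30. Hspa5, the Hsp70 of that compartment, was at 294 and 274 CPM, a ratio of -0.10. So Hsp90b1 had a lower ratio in rods than its cytosolic relatives Hsp90aa1 and Hsp90ab1, at -0.16 and -0.08. Of the small heat shock proteins and crystallins, Cryab, a relative of Hspb1, was at 958 and 772 CPM in Müller glia, a ratio of -0.31 (-0.49 to -0.14), and at 31.0 and 19.4 CPM in rods, a ratio of -0.68.

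Genes whose levels were most like the inducible sum over the 8 sums of class and library were Arhgap17 (Pearson r of 0.989), Ifrd1 (0.973), Trp53bp2 (0.972), H3f3b (0.962) and Yipf1 (0.962), among 7256 genes. Those most like Hspa8 were Capzb (0.983), Atxn7l3b (0.979), Zfand3 (0.974), Cbr1 (0.974) and Pkia (0.971). The 8 points share 2 libraries and 4 classes, and the correlations are given as descriptions. No gene was among the 5 nearest of both.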

How the data were processed

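The authors deposited raw UMI counts per gene and cell, which the file headers credit to cellranger 6.0.1, and the submitters' processing notes name Cell Ranger and mm10. Annotation release and use of strand in counting are not given in the sources used here. Positions came from GENCODE M21. Cells with at least 200 genes and at most 20% mitochondrial UMIs were kept, which removed 78 and 120 barcodes. A non-rod class needed 3 detected markers and a marker UMI share 4 times that over all cells, and the rod class 3 markers and 0.5 times. Cells passing several gates (556 and 319) were set apart, which removes part of the doublets. No doublet caller was run. Counts were summed by class and library with numpy 2.4.6 and scipy 1.17.1, and 0 was set to 3 UMIs for ratios. The interval code was tested on simulated counts. Alternatives used size factors of edgeR 4.0.16 and DESeq2 1.42.0 and Leiden clusters. The members and lists were chosen with earlier results of these data known. Named genes were all 10 members, the 3 of each list with the most UMIs in rods, and the 5 most alike by correlation. Genes listed as past the fold outside that rule were named after their values were seen.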

Additional observations from a re-analysis of the deposited data

How the results depend on the processing

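With 1 library per genotype, depth limits what counting error allows, and no library could be left out. No paired analysis was possible because each genotype had 1 library. In total 757 alternative values were computed over all members, sums and counts. Of these, 6 had a changed sign where the main interval lay away from 0, all of them for single members. The inducible sum kept its sign in all 20 alternatives in rods, 17 in bipolar cells and 19 in Müller glia, and in 15 of 16 in cones. In Müller glia the inducible log2 ratio was -0.93 with cells thinned to 1000 UMIs, -0.91 in Leiden clusters, -0.60 with Hsp90aa1 counted as inducible, and -0.41 below and -0.78 at or above the median early gene share. The constitutive ratio there was -0.37 with a gate of 2 markers and -0.045 below that median. Below it Hspa8 (0.079), Hsp90aa1 (0.0019) and Dnajb1 (0.40) changed sign, and Hsph1 did so after thinning (0.10). The cause was not tested. In rods the inducible ratio was -0.20, -0.034 and -0.23 from 2 to 5%, 5 to 10% and 10 to 20% mitochondrial UMIs. The constitutive ratio was -0.13, -0.019 and -0.025 at 0 to 2%, 5 to 10% and 10 to 20%, and -0.11 with median-ratio size factors. Hspa1a was at 0.030 at 5 to 10% and Hsph1 at 0.32 at 10 to 20%. With a fold of log2 0.5, 0 of 9 members were lower in rods, 1 of 7 in bipolar cells and 2 of 7 in Müller glia. The shares of all measured genes were 2.37%, 3.12% and 4.98%. With at least 500 UMIs fewer genes are measured, and 2 of 9 members were lower in rods, 1 of 4 in bipolar cells and 3 of 4 in Müller glia. The shares of all measured genes were then 4%, 8.33% and 17.5%. Leiden clusters gave no cone value, because the cone cluster was set apart as mixed with rods. Splits by early gene share and by mitochondrial share were chosen after seeing the data.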

Other observations

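Within rods, the other inducible members were compared in cells with and without Hspa1a. After thinning to 1000 UMIs, Hspa1b was found in 6.20% (4.69% to 8.01%) of wild-type rods with Hspa1a and 4.44% (3.93% to 5.00%) of those without, and in 5.77% (4.44% to 7.35%) and 4.24% (3.79% to 4.73%) of db/db rods. The intervals overlap in both libraries, and the authors' division of reads between these near-identical copies is not known here. Likewise, 8.04% of the 871 wild-type rods with Hspa1a also had Dnajb1, against 7.07% of the 5882 rods without it. The values in db/db rods were 7.95% of 1057 and 6.70% of 7281. For Hsph1 they were 2.30% with and 3.15% without Hspa1a among wild-type rods, and 1.80% and 2.14% among db/db rods. In wild-type Müller glia, 10 of 20 cells with Hspa1a had Dnajb1, against 34 of 131 without, and all 20 had Jun, against 92 of 131. In the db/db library the counts were 2 of 6 against 15 of 88 for Dnajb1, and 5 of 6 against 47 of 88 for Jun. These cells come from 1 library per genotype, and the shares are given as descriptions.

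The 1% of rods with the highest Hspa1a level held 8.73% of its wild-type and 7.34% of its db/db UMIs, against 1.71% and 2.48% for Hspa8. Since the cells are picked on the same gene, this share also rises as a gene gets rarer, and Hspa8 is more abundant. Hspd1, at a level in rods near that of Hspa1a, had 3.63% and 4.80%, and Hspe1 had 4.26% and 6.63%. The inducible Dnajb1 had 5.27% and 6.81%. The highest count of Hspa1a in a single rod was 23 UMIs among wild-type and 20 among db/db cells.

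Microglia or macrophages kept high levels of the inducible members Hspa1a and Dnajb1 when defined in other ways, an alternative chosen after seeing the data. With cells kept that also passed the rod gate, 63 and 58 cells, Hspa1a was at 705 and 884 CPM and Dnajb1 at 1026 and 772 CPM. In Leiden clusters, with 63 and 62 cells, Hspa1a was at 713 and 792 CPM and Dnajb1 at 1053 and 692 CPM. Hspa8 was at 3860 and 2482 CPM under the first and 3927 and 2351 CPM under the second definition.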
